A study of Mus musculus with 12 samples.

Results

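The genes described here encode laminin chains (Lama2, Lama3, Lama4, Lama5, Lamb1, Lamb2 and Lamc1), the nidogens Nid1 and Nid2, and Hspg2, the core protein of perlecan, in smooth muscle cells (SMCs) of the mouse thoracic aorta. They were taken by gene symbol, through the Ensembl identifiers of the deposited matrix, and not by any measured value. Each symbol matched 1 row, so that 10 of the 52636 genes in the matrix were members, and all 10 passed the filter on low counts that left 22320 genes for testing.

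Laminins are secreted heterotrimers of an α, a β and a γ chain that polymerize at the cell surface and form the first layer of a basement membrane. Nidogens bind the laminin γ1 chain, encoded by Lamc1, and type IV collagen and bridge both networks, and perlecan is a large heparan sulfate proteoglycan that binds laminin, nidogen and growth factors. Each SMC of the aortic media lies in a basement membrane of this kind, to which it holds through integrins and dystroglycan. The α chains carry the main binding sites for these receptors. Lama4 and Lama5 are known from vessel walls, Lama2 from muscle fibers, and Lama3 from epithelia.

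Bulk RNA sequencing was done on GFP+ SMCs sorted from the ascending aorta with the arch, or from the descending thoracic aorta, of C57BL/6J mice aged 12 weeks. GFPiSMC mice carried the Myh11-CreERT2 transgene and the mT/mG reporter and had intact TGF-β receptors. Tgfbr1/2iSMCKO mice carried the same transgene and reporter with floxed alleles of both Tgfbr1 and Tgfbr2, so that Cre removed both receptors in SMCs. All mice of both genotypes received tamoxifen on 5 days, per the study 1 week before analysis, which is the schedule of 2 mg per day from 11 weeks of age, although the labels also list 1 mg per day from 4 weeks. Cre ran under the SMC promoter Myh11, the transgene lies on the Y chromosome, so the mice were male, and GFP marks cells with recombination of the reporter, not of the receptor genes. Each of the 4 groups of genotype and segment held 3 libraries (replicates 1 to 3), and each library came from the segment of an individual aorta. The question was what changes in SMCs after short-term loss of TGF-β signaling.

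Total counts ran from 20467027 to 31392396 per library, from 9208 to 20000 sorted cells. The members together took 0.0527% to 0.0804% of the counts in GFPiSMC and 0.0441% to 0.0707% in Tgfbr1/2iSMCKO. Values are given as counts per 1000000 (CPM) after TMM scaling between libraries, as mean ± SD. Of 7 smooth muscle markers, summed CPM was 39788 to 47783 in GFPiSMC and 33863 to 42719 in Tgfbr1/2iSMCKO, and Myh11 was at 2275 CPM or above in every library. Summed CPM of 10 fibroblast markers was 95.7 to 231 in GFPiSMC and 37.0 to 274 in Tgfbr1/2iSMCKO. That of 11 endothelial markers was 85.9 to 120 in GFPiSMC and 70.6 to 123 in Tgfbr1/2iSMCKO. Of these, Pecam1 was at 44.4 to 95.7 CPM, and Erg reached 21.7, Vwf 12.7 and Ptprb 8.58 CPM at most. The highest values of the rest were lower, at 4.55 (Tek), 2.71 (Cdh5), 1.94 (Egfl7), 1.75 (Kdr), 1.75 (Emcn), 1.61 (Cldn5) and 1.49 CPM (Tie1). Summed CPM of 9 macrophage markers stayed between 7.85 and 27.5. The part of endothelial cells in the values of the members was not tested. In sorted cells as in tissue, fewer cells of a type and less RNA per cell cannot be told apart. Libraries also differed in the level of GC-rich genes. The median log2 deviation of the 918 expressed genes above 56.7% GC was lowest at −0.41 (descending Tgfbr1/2iSMCKO, replicate 2). It was highest at 0.42 (descending GFPiSMC, replicate 2), with both libraries of Tgfbr1/2iSMCKO replicate 3 high at 0.36 and 0.30. Libraries from 9208 to 12000 sorted cells had values of 0.23 to 0.42, and those from 12526 to 20000 cells had −0.41 to 0.02. The part of cell number in this measure was not tested. Results are therefore also given after a correction for GC content, in which a smooth curve of each library's deviations on transcript GC was entered as an offset. The deleted receptors themselves gave no check of the genotype labels. Tgfbr1 was at 196 to 292 CPM in GFPiSMC and 198 to 295 CPM in Tgfbr1/2iSMCKO (adjusted p = 0.790), and Tgfbr2 at 88.9 to 128 and 68.2 to 102 CPM (log2 fold change −0.26, adjusted p = 0.233), but counts summed over a whole gene include exons outside the floxed part.

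On a per-length scale, Lama4 was the most abundant α chain and Lamb2 the more abundant β chain measured here, at levels like that of the γ chain Lamc1. In GFPiSMC, Lamb2 had a level of 24.8 ± 6.88 CPM per kb of exon, Lamc1 of 21.7 ± 5.55 and Lama4 of 16 ± 2.52 (SD, n = 6 libraries). The library ranges of neighbors in this order overlapped. Below a gap came Lama5 at 5.04 ± 2.67, Nid1 at 4.83 ± 1.04, Lama2 at 2.77 ± 1.04, Hspg2 at 1.82 ± 0.825 and Nid2 at 1.43 ± 0.367 CPM per kb, each overlapping its neighbors. Lama3 (0.193 ± 0.0840) and Lamb1 (0.0861 ± 0.0430) were lowest and rested on 30 to 121 and 9 to 43 counts per library. Lamb2 thus made up 99.6% ± 0.224 of the summed Lamb1 and Lamb2 level in GFPiSMC and 99.5% ± 0.345 in Tgfbr1/2iSMCKO (SD, n = 6). Of the summed level of the 4 α chains, Lama4 made up 67.0% ± 2.99 in GFPiSMC and 64.6% ± 4.66 in Tgfbr1/2iSMCKO, ranges that overlapped. With the longest transcript as the length, its mean share in GFPiSMC was 76.4%. By that length the order in GFPiSMC also changed, with Lama4 (31.9 ± 5.03 CPM per kb) above Lamb2 (26.8 ± 7.43) and Lamc1 (23.6 ± 6.03). Nid1 (5.50 ± 1.18) then came above Lama5 (5.04 ± 2.67). Other laminin chains were Lama1 (0.129 to 1.21 CPM), Lamb3 (0.413 to 1.46 CPM) and Lamc3 (5.40 to 99.9 CPM). Their genotype comparisons over both segments did not pass (adjusted p = 0.932, 0.756 and 0.367). Lamc3 was uneven across groups, with its highest mean, 73.9 ± 23.7 CPM, for ascending/arch GFPiSMC (SD, n = 3). Its remaining means were 13.7 ± 2.99 (descending GFPiSMC), 15.2 ± 8.74 (ascending/arch Tgfbr1/2iSMCKO) and 15.5 ± 8.74 CPM (descending Tgfbr1/2iSMCKO). The comparison over both segments averages these groups, and the Lamc3 effect within each segment is not given here.

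**Figure D1:**
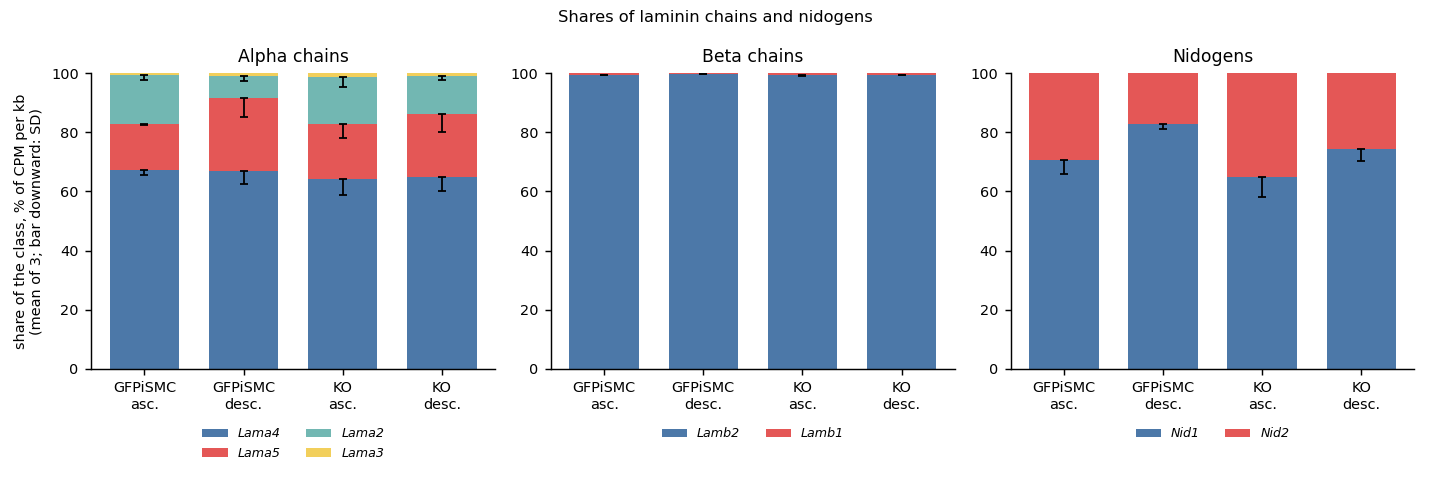
Stacked bars give the mean share of each laminin α chain, β chain and nidogen in its class (% of CPM per kb, 3 libraries per group; asc., ascending/arch; desc., descending; KO, Tgfbr1/2iSMCKO; black bars drawn downward, SD). Lama4 and Lamb2 took the greatest shares in all 4 groups, and the Lama2 share was lowest in descending GFPiSMC cells, at 7.45%.

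After loss of the TGF-β receptors, Nid1 was the only member whose change passed the test, falling to 0.468 of its GFPiSMC level. No change of a laminin chain, of Nid2 or of Hspg2 passed. Over both segments, 1 of 10 members passed (edgeR, adjusted p under 0.05), beside 5.03% of all genes tested, of which 721 were lower and 402 higher. The member was lower, as were 3.23% of all genes. At an unadjusted p under 0.05, 4 of 10 members were lower (Nid1, Lamc1, Lama4 and Nid2), beside 8.56% of all genes. The median log2 fold change was −0.28 over the members, of which 7 were negative, and 0.04 over all genes, of which 46.3% were negative. When libraries were scaled by total counts alone, the split of all called genes turned to 505 lower and 699 higher and the median of all genes to 0.16, and the log2 fold change of Nid1 was −0.97 with an adjusted p of 0.00177. With the GC correction, again 1 of 10 members passed, beside 5.62% of all genes.

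**Figure D2:**
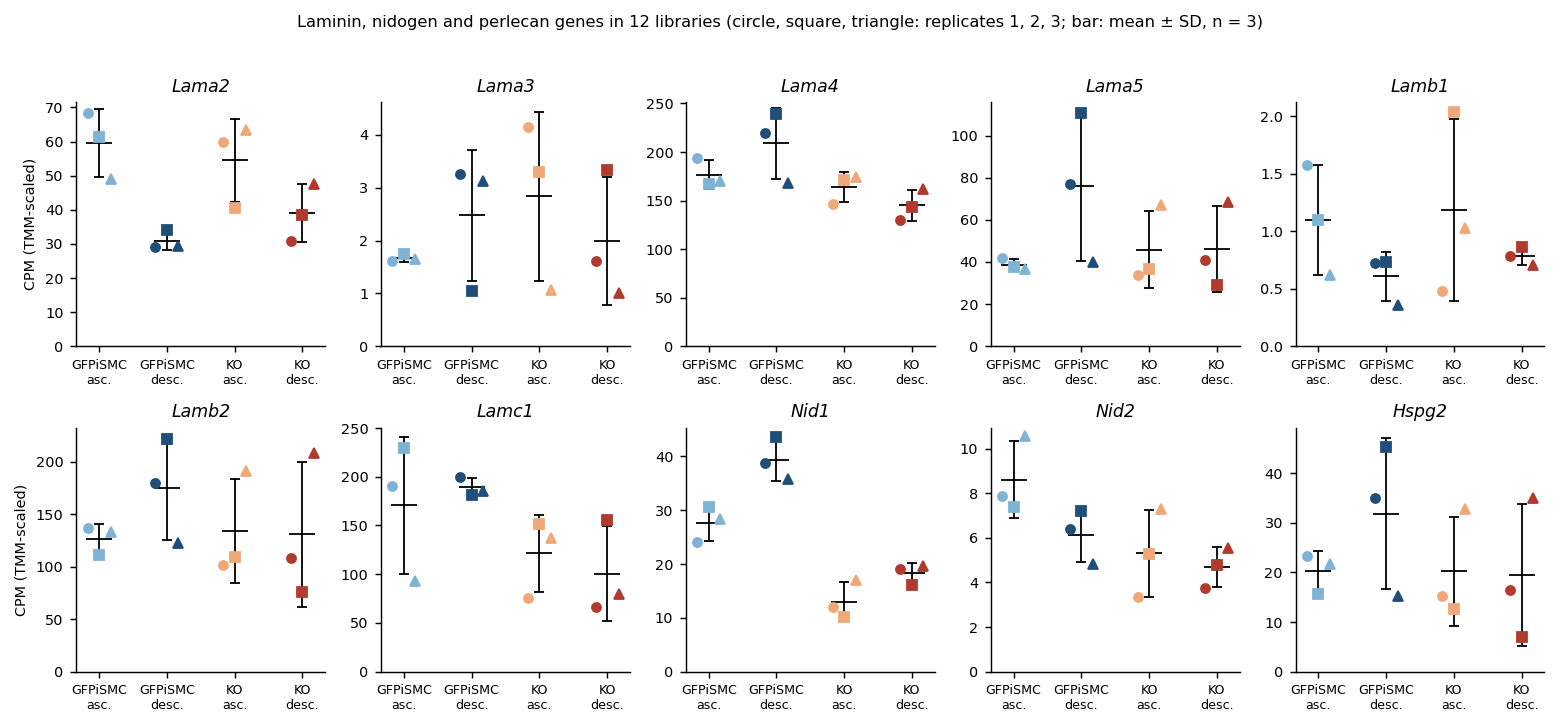
Points give CPM (linear axis from 0) of each gene in each of the 12 libraries, by genotype and segment (asc., ascending/arch; desc., descending; KO, Tgfbr1/2iSMCKO), and bars the mean ± SD of 3 libraries. Nid1 is the panel in which all 6 Tgfbr1/2iSMCKO points (10.1 to 19.6 CPM) lie below all 6 GFPiSMC points (24.1 to 43.6 CPM).

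Nid1 lies on the plus strand at chr13:13437551-13512269 (GRCm38) and encodes nidogen-1, the main partner of laminin γ1. In ascending/arch cells it was at 24.1, 30.6 and 28.4 CPM in GFPiSMC and at 11.9, 10.1 and 17 CPM in Tgfbr1/2iSMCKO. In descending cells it was at 38.7, 43.6 and 35.8 CPM in GFPiSMC and at 19.1, 16 and 19.6 CPM in Tgfbr1/2iSMCKO. Every Tgfbr1/2iSMCKO library was below every GFPiSMC library, as was so for 2.89% of all genes. The log2 fold change was −1.10 (SE 0.16, 95% confidence interval −1.43 to −0.76, adjusted p = 0.000825), rank 229 of the 22320 genes by p. It was −1.08 (adjusted p = 0.000306) after the GC correction and −1.08 (adjusted p = 0.0410) when the counts of both segments of a replicate number were summed and 3 sums were compared with 3. Against a null of a change of up to 2-fold, Nid1 did not pass (adjusted p = 1), and over all settings its adjusted p ran from 1.09e-10 to 1. An antisense gene, Gm48682, shares 143 exon bases with Nid1, and reads from that stretch could not be told apart if strand was not used in counting. Between genotypes, the summed fibroblast markers were also lower in descending cells without overlap (95.7 to 109 against 37.0 to 72.1 CPM), and they overlapped in ascending/arch cells (200.1 to 231 against 130.1 to 274 CPM). Of the 9 markers tested, Serpinf1 (log2 fold change −1.58, adjusted p = 0.00646) and Col14a1 (−0.82, adjusted p = 0.0316) fell over both segments. The other 7 did not pass, and the median log2 fold change of the 9 markers was 0.24, toward higher levels in Tgfbr1/2iSMCKO. Their part in the Nid1 values was not tested.

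Nid1, the 1 member whose change passed the test after receptor loss, is shown with its promoter. Smad proteins, which carry the signal of the TGF-β receptors, bind DNA at GTCTAGAC and CAGACA. The RefSeq promoter table (GRCm38.p6, 250 bases before to 50 after each start) held 6 of the 10 members and 32851 promoters in all. The bases up to the annotated gene start, at chr13:13437352-13437550 on the plus strand, are given below 5′ to 3′ with the 1 GC box (GGGCGG), a motif bound by Sp1 factors, in capitals.
Nid1: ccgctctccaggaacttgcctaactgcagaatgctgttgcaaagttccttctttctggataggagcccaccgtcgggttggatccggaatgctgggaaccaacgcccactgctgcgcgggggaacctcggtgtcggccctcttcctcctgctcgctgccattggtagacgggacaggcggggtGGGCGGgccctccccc

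On either strand, GTCTAGAC was in 0 of these 6 promoters and in 0.213% of all, and CAGACA in 1 of 6 (Lamb2) and in 21% of all. GGGCGG was in Nid1 (1 match), Lama2 (1), Lamb1 (2), Lama5 (4) and Hspg2 (5), not in Lamb2, and in 35.7% of all promoters. These are matches of letters in a window of 300 bases and were not tested as sites.

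Nid2 (chr14:19751265-19811787, plus strand) encodes the second nidogen and lay at a lower level. GFPiSMC cells had 7.88, 7.38 and 10.6 CPM in the ascending/arch segment and 6.41, 7.22 and 4.82 CPM in the descending one. Tgfbr1/2iSMCKO cells had 3.36, 5.29 and 7.28 CPM, and 3.77, 4.78 and 5.57 CPM, in that order. The groups overlapped over both segments, and the log2 fold change of −0.54 (SE 0.23, interval −1.04 to −0.05) did not pass (adjusted p = 0.252). Nid2 shares 437 exon bases with Rtraf on the opposite strand. The log2 ratio of Nid1 to Nid2, both per kb, averaged 1.77 ± 0.115 in GFPiSMC and 1.23 ± 0.388 in Tgfbr1/2iSMCKO (SD, n = 3 replicates, mean of both segments). All 3 Tgfbr1/2iSMCKO values were lower, which gives p = 0.1 in an exact two-sided permutation test, the smallest that 3 against 3 allows (0.25 adjusted over the 5 ratios compared). With the GC correction these values overlapped (p = 0.2, exact permutation test).

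Among the α chains, Lama4 (chr10:38965515-39110188, plus strand), the most abundant in these cells, had 194, 167 and 170 CPM in the ascending/arch libraries of GFPiSMC and 219, 239 and 168 CPM in the descending ones. In Tgfbr1/2iSMCKO these libraries had 146, 171 and 174 CPM, and 130, 143 and 162 CPM. The genotypes did not overlap in descending cells and overlapped in ascending/arch cells. Over both segments the log2 fold change was −0.32 (SE 0.12, interval −0.58 to −0.05, adjusted p = 0.196). With the GC correction, all 6 Tgfbr1/2iSMCKO libraries (130 to 172 CPM) lay below all 6 GFPiSMC libraries (175 to 209 CPM), which set Lama4 beside Nid1 as the 2 of 10 members without overlap, against 2.72% of all genes, but the change of −0.28 still did not pass (adjusted p = 0.132).

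Lama2 (chr10:26980036-27619758, minus strand), the α chain of muscle basement membranes, had a log2 fold change of 0.11 (SE 0.17, interval −0.26 to 0.47, adjusted p = 0.863), with 29.2 to 68.4 CPM in GFPiSMC and 30.9 to 63.3 CPM in Tgfbr1/2iSMCKO. Its levels separated by segment more than by genotype, as described below. Lama3 was at 1.05 to 3.26 CPM in GFPiSMC and 1.01 to 4.15 CPM in Tgfbr1/2iSMCKO (log2 fold change 0.22, SE 0.43, adjusted p = 0.897). Lama2 shares 631 exon bases with the antisense gene Gm48084 and Lama3 shares 197 with Gm29200.

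Lama5 (chr2:180176373-180225859, minus strand), an α chain found in most mature basement membranes, measured 41.8, 37.6 and 36.7 CPM in the ascending/arch libraries of GFPiSMC and 77.1, 111 and 40.1 CPM in the descending ones. The values of Tgfbr1/2iSMCKO were 33.9, 36.8 and 67.0 CPM for the ascending/arch libraries and 41.0, 28.9 and 68.6 CPM for the descending ones. The descending GFPiSMC library of replicate 2 and both libraries of Tgfbr1/2iSMCKO replicate 3 were the highest of their groups, and the log2 fold change of −0.24 (SE 0.30, interval −0.89 to 0.41, adjusted p = 0.817) did not pass. It moved to −0.00221 without that GFPiSMC library, and from −0.62 to −0.0286 when a replicate was left out.

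Of the β chains, Lamb2 (chr9:108479736-108490530, plus strand) reached 137, 111 and 133 CPM in GFPiSMC cells of the ascending/arch segment and 180, 222 and 123 CPM in those of the descending one. Tgfbr1/2iSMCKO cells of these segments reached 102, 110 and 191 CPM, and 108, 75.9 and 209 CPM. The highest libraries of these 3 groups were the same as for Lama5, and the log2 fold change was −0.17 (SE 0.25, interval −0.71 to 0.37, adjusted p = 0.848). Lamb1 was at 0.362 to 1.58 CPM in GFPiSMC and 0.480 to 2.04 CPM in Tgfbr1/2iSMCKO (log2 fold change 0.22, SE 0.39, adjusted p = 0.878), and at these counts a rise of 2-fold was still inside the 95% interval.

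Lamc1 (chr1:153218922-153332786, minus strand) encodes γ1, the γ chain of most laminins and the chain that nidogen binds. Its values in GFPiSMC were 190, 229 and 92.8 CPM for the ascending/arch libraries and 200, 182 and 186 CPM for the descending ones. Its values in Tgfbr1/2iSMCKO were 75.9, 151 and 137 CPM, and 66.1, 156 and 79.8 CPM. All 3 descending Tgfbr1/2iSMCKO libraries were below all 3 descending GFPiSMC libraries, but 1 low ascending/arch GFPiSMC library lay among the Tgfbr1/2iSMCKO values. With the GC correction, the descending libraries overlapped too (64.6 to 192 CPM in Tgfbr1/2iSMCKO and 148 to 206 CPM in GFPiSMC). The log2 fold change over both segments was −0.70 (SE 0.26, interval −1.26 to −0.14, adjusted p = 0.174), the second most negative among the members, and the spread within groups was 31.8% of the mean. Leaving out a replicate moved it between −0.46 (without Tgfbr1/2iSMCKO replicate 1) and −1.02 (without Tgfbr1/2iSMCKO replicate 2), with adjusted p from 0.0546 to 0.510.

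Hspg2 (chr4:137468769-137570630, plus strand), with 14307 exon bases, gave 23.4, 15.8 and 21.6 CPM in ascending/arch GFPiSMC libraries and 35.0, 45.3 and 15.3 CPM in descending ones. Tgfbr1/2iSMCKO libraries gave 15.3, 12.6 and 32.9 CPM in the ascending/arch segment and 16.4, 7.01 and 35.1 CPM in the descending one. The groups overlapped throughout, and the log2 fold change of −0.35 (SE 0.39, interval −1.19 to 0.48, adjusted p = 0.774) did not pass. Without Tgfbr1/2iSMCKO replicate 3, both of whose libraries were high in Hspg2, the log2 fold change was −0.99 (adjusted p = 0.179, the lowest over all settings, which ran up to 1), and without replicate 2, both of whose libraries were low, it was −0.02.

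Lama5, Lamb2 and Hspg2 shared a pattern over libraries of the same group. Their transcripts were the most GC-rich of the members (59.9%, 58.8% and 60.9% GC), and their levels followed the level of other GC-rich genes in the same library. With group means removed, Pearson's r between the log2 level and that measure over the 12 libraries was 0.960 for Lama5, 0.964 for Lamb2 and 0.979 for Hspg2. A strong relation was not limited to these genes, with r of −0.880 for Lama3 (51.7% GC) and 0.720 for Lama4 (50.03% GC). For Nid1 (50.4% GC) r was 0.633 and for Lamc1 (53.0% GC) −0.243. The points share their library and its depth, so these values are descriptive. Their mean coefficient of variation within groups went from 34.4% to 19.6% for Lama5, from 32.3% to 15.1% for Lamb2 and from 48.7% to 34.3% for Hspg2 with the GC correction, and it went up for Lama3 (42.8% to 51.4%), Lamc1 (31.8% to 40.0%) and Lamb1 (38.9% to 40.8%). The corrected log2 fold changes of Lama5, Lamb2 and Hspg2 were −0.25 (adjusted p = 0.575), −0.22 (adjusted p = 0.493) and −0.39 (adjusted p = 0.551).

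**Figure D3:**
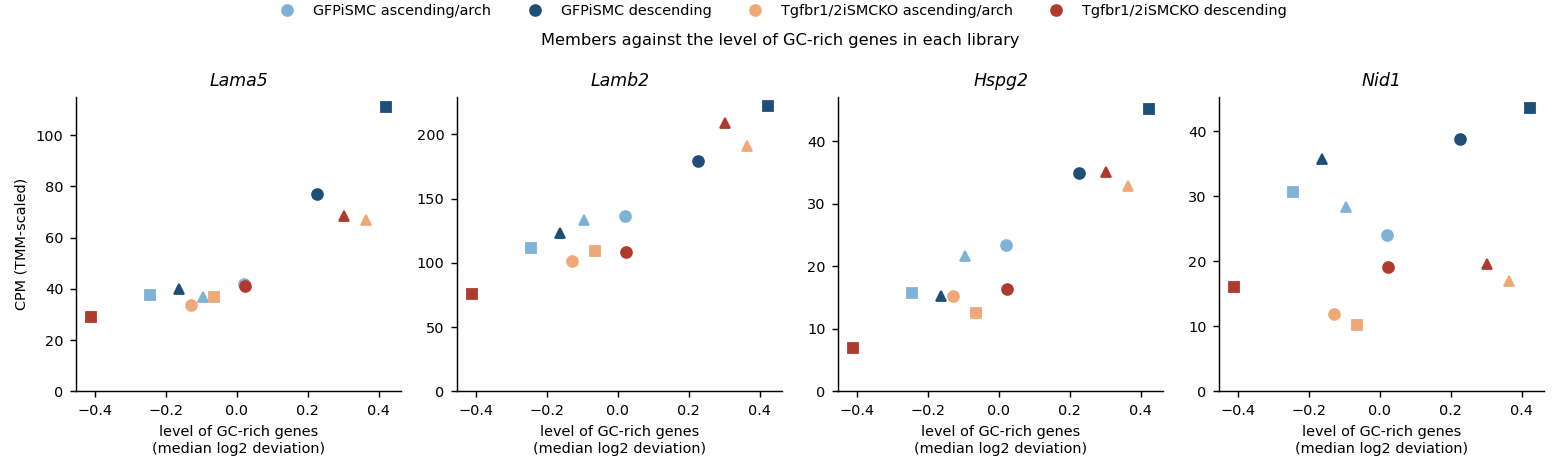
Each point is a library, with the median log2 deviation of genes above 56.7% GC on the x axis and CPM of the gene on the y axis (linear, from 0; circle, square and triangle, replicates 1, 2 and 3). Lama5, Lamb2 and Hspg2 are higher toward the right in both genotypes, over −0.25 to 0.42 in GFPiSMC and −0.41 to 0.36 in Tgfbr1/2iSMCKO, and the Nid1 values of Tgfbr1/2iSMCKO lie below those of GFPiSMC at both low and high values of x.

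The genotype effect was also estimated in each segment, with all groups sharing an estimate of the spread. In ascending/arch cells, Nid1 was again the 1 member of 10 called lower (log2 fold change −1.09, SE 0.23, adjusted p = 0.0410), beside 1.01% of all genes. Nid1 and Nid2 were the 2 members whose groups did not overlap, beside 10.1% of all genes that were lower without overlap, and for Nid2 the log2 fold change was −0.70 (adjusted p = 0.461). In descending cells, Nid1 fell as well (log2 fold change −1.11, SE 0.23, adjusted p = 0.0318), beside 1.21% of all genes. There Nid1, Lamc1 and Lama4 were lower without overlap, beside 7.75% of all genes, and the log2 fold changes of Lamc1 (−0.91, adjusted p = 0.379) and Lama4 (−0.53, adjusted p = 0.177) did not pass. With the GC correction, Lamc1 overlapped in descending cells (−0.72, adjusted p = 0.619). Lama2 was then higher without overlap, and its change of 0.41 did not pass (adjusted p = 0.531). The Nid1 calls within a segment were near the threshold. Without any one of the 3 GFPiSMC replicates, or of Tgfbr1/2iSMCKO replicates 1 and 2, the adjusted p rose to between 0.151 and 0.226 in ascending/arch and between 0.101 and 0.199 in descending cells, with log2 fold changes from −1.33 to −0.93 and from −1.18 to −1.02 over all 6 such fits.

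**Figure D4:**
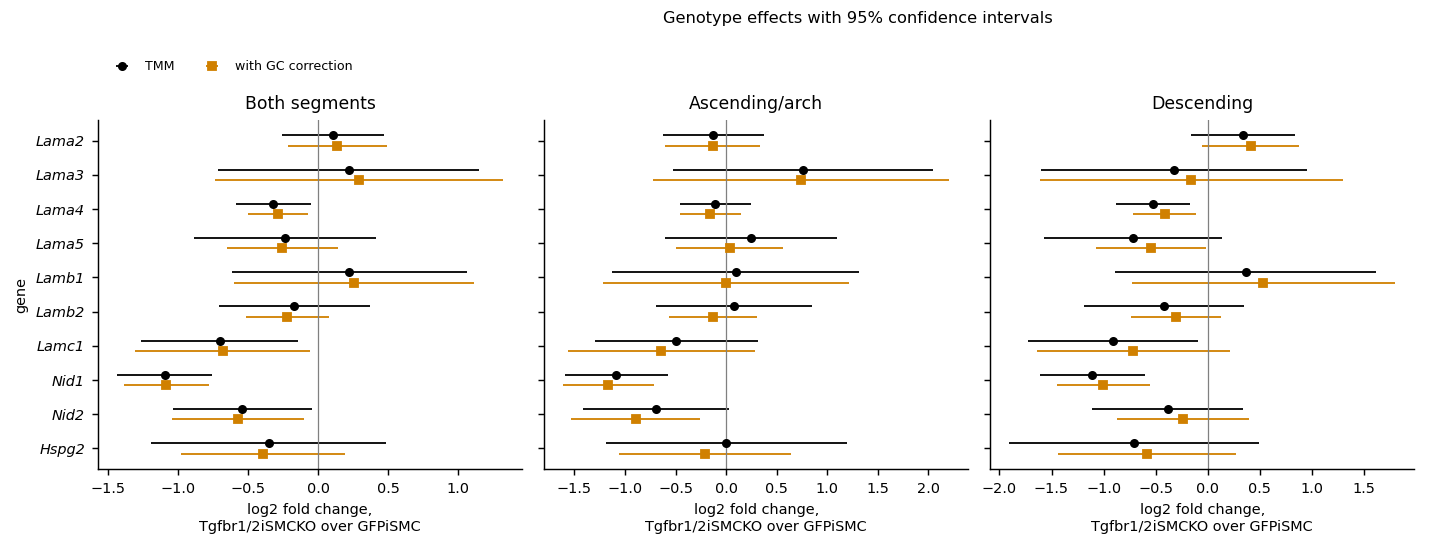
Points are log2 fold changes of Tgfbr1/2iSMCKO over GFPiSMC and lines their 95% confidence intervals, over both segments and in each one, with TMM scaling (black circles) and after the GC correction (orange squares). Nid1 is the gene whose interval stays below 0 in all 3 panels under both settings and whose change passed the adjusted threshold.

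Whether the effect of receptor loss differed between segments was tested directly. With edgeR, 0 of 10 members and 0% of all genes passed, and at an unadjusted p under 0.05 it was 0 members, beside 2.95% of all genes. DESeq2 also called 0 members. For Nid1 the difference of the effects, descending minus ascending/arch, was −0.02 (SE 0.33, interval −0.73 to 0.69). The values furthest from 0 in units of their error were those of Lama4 (−0.42, SE 0.23) and Lama5 (−0.97, SE 0.55), each with an adjusted p of 1. These intervals are wide, and a difference of 2-fold between segments was inside those of all members but Lama4 and Nid1.

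Between segments of GFPiSMC mice, Lama2 was lower in descending than in ascending/arch cells, to 0.518 of the level, in a comparison that passed with DESeq2 and not with edgeR. It was at 68.4, 61.4 and 48.9 CPM (59.6 ± 9.86, SD, n = 3) in ascending/arch and at 29.2, 34.0 and 29.3 CPM (30.8 ± 2.75) in descending cells, with no overlap. The log2 fold change was −0.95 (SE 0.23, interval −1.45 to −0.45), with an adjusted p of 0.170 in edgeR and 0.0138 in DESeq2. Over all settings tried it stayed negative, from −1.03 to −0.78, with adjusted p from 0.0138 to 0.991. By edgeR 0 of 10 members passed, beside 0.376% of all genes. At an unadjusted p under 0.05 it was 3 members (Lama2, Lama5 and Nid1), beside 5.98% of all genes.

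Without overlap, Lama2 and Nid2 were lower in descending GFPiSMC cells, beside 7.8% of all genes, and Nid1 was higher, beside 5.19%. Nid1 was at 27.7 ± 3.33 CPM in ascending/arch and, in descending cells, at 39.4 ± 3.97 CPM (SD, n = 3), a log2 fold change of 0.51 that did not pass (adjusted p = 0.826). Lama5 had a log2 fold change of 0.98 (adjusted p = 0.753) and of 0.64 (adjusted p = 0.651) with the GC correction.

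In GFPiSMC, the summed level of the fibroblast markers was lower in descending than in ascending/arch cells, as was Lama2. Their summed level there was 200.1 to 231 CPM in the ascending/arch segment and 95.7 to 109 CPM in the descending one. In Tgfbr1/2iSMCKO it was 130.1 to 274 and 37.0 to 72.1 CPM, without overlap, while Lama2 overlapped between segments (40.6 to 63.3 and 30.9 to 47.7 CPM). The ascending/arch Tgfbr1/2iSMCKO library highest in Lama2 (63.3 CPM, replicate 3) had the lowest marker sum of that group (130.1 CPM). All 10 were measured, with Pdgfra at 7.08 to 21.7 CPM and Dcn at 2.31 to 120 CPM over the 12 libraries, and Clec3b at 0 in 4 of them. Of the 9 that passed the count filter, 8 had a lower mean in descending than in ascending/arch GFPiSMC cells, and Serpinf1 had a higher one (33.1 against 15.1 CPM). Their part in the Lama2 values was not tested.

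**Figure D5:**
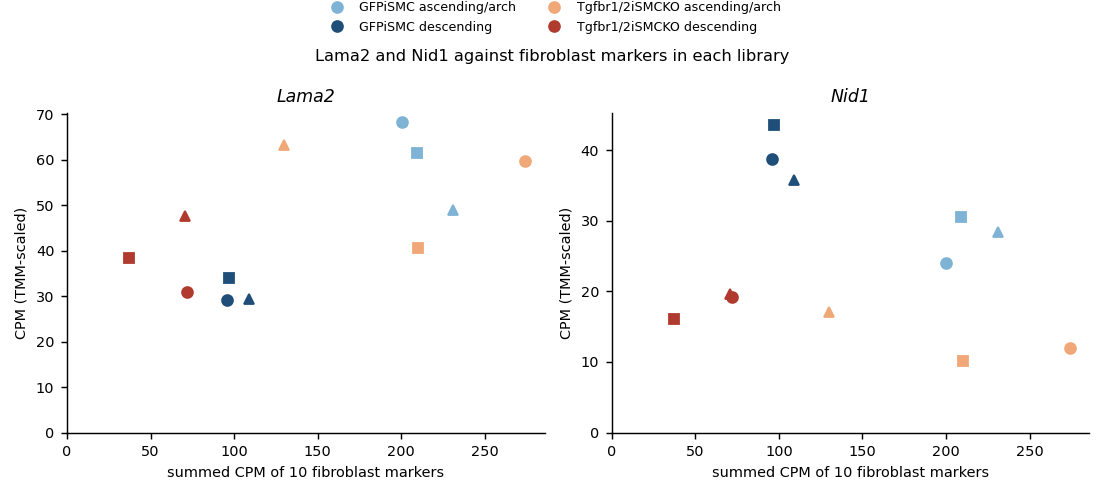
Each point is a library, with the summed CPM of 10 fibroblast markers on the x axis and CPM of Lama2 or Nid1 on the y axis (both linear, from 0; circle, square and triangle, replicates 1, 2 and 3). The descending GFPiSMC libraries sit at 95.7 to 109 CPM of markers and 29.2 to 34.0 CPM of Lama2, and the ascending/arch GFPiSMC libraries at 200.1 to 231 and 48.9 to 68.4 CPM.

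In Tgfbr1/2iSMCKO mice, Lama2 was at 59.8, 40.6 and 63.3 CPM in ascending/arch and at 30.9, 38.5 and 47.7 CPM in descending cells, with overlap. The log2 fold change was −0.48 (SE 0.23, interval −0.98 to 0.02) with an adjusted p of 1, and its difference from that in GFPiSMC, 0.47 (SE 0.32), did not pass. With edgeR 0 of 10 members passed, beside 0.112% of all genes, and 0 of 10 at an unadjusted p under 0.05, beside 3.68%, and DESeq2 called 0. No member separated the segments without overlap here, beside 4.08% of all genes that were lower and 3.15% that were higher. With the GC correction, Nid1 did separate them, at 10.2 to 14.9 CPM in ascending/arch and 17.6 to 19.0 CPM in descending cells. That change (log2 fold change 0.54, unadjusted p = 0.0210 in edgeR) did not pass the adjusted threshold. Nid1 had the same sign as in GFPiSMC, with 13.0 ± 3.56 CPM in ascending/arch cells and 18.3 ± 1.95 CPM in descending ones (SD, n = 3, log2 fold change 0.49, adjusted p = 1).

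The ratio of Lama2 to Lama4 does not depend on scaling between libraries. In GFPiSMC its log2 value per kb was −1.94, −1.88 and −2.23 in ascending/arch and −3.35, −3.25 and −2.96 in descending cells. In Tgfbr1/2iSMCKO it was −1.73, −2.51 and −1.90 in ascending/arch and −2.51, −2.33 and −2.20 in descending cells. The segments were apart in GFPiSMC, while in Tgfbr1/2iSMCKO all 3 descending values lay within the ascending/arch range, and this difference was not tested. Averaged over both segments, the ratio was −2.60 ± 0.0384 in GFPiSMC and −2.20 ± 0.199 in Tgfbr1/2iSMCKO (SD, n = 3), with all 3 Tgfbr1/2iSMCKO values higher (p = 0.1, exact two-sided permutation test, the smallest possible, adjusted 0.25). The ratios of Lama2 to Lama5, Lama4 to Lama5 and Lamb1 to Lamb2 differed by 0.35, −0.06 and 0.45 on the log2 scale, each with overlap, though with the GC correction Lama2 to Lama5 did not overlap (0.37, p = 0.1, exact permutation test).

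The partners of laminin in the basement membrane are given for comparison. Of 8 basement membrane collagens, 5 fell and 0 rose after receptor loss, beside 3.23% of all genes that fell, with a median log2 fold change of −1.14 against −0.28 for the members. Col15a1, encoding the collagen XV that links basement membranes to fibrils, was at 154 to 326 CPM in GFPiSMC and 0.337 to 4.03 CPM in Tgfbr1/2iSMCKO (log2 fold change −6.62, SE 0.45, adjusted p = 1.22e-06). Col18a1 (−1.14, adjusted p = 7.8e-06) and the type IV collagen chains Col4a2 (−1.56, adjusted p = 3.98e-06) and Col4a5 (−1.34, adjusted p = 3.03e-06) also fell, as did Col4a6 (−0.86, adjusted p = 7.28e-05), which is named because it completes the count. Col4a1, the usual partner of Col4a2, had a log2 fold change of −1.15 and did not pass (adjusted p = 0.0657), with GFPiSMC libraries from 107 to 709 CPM.

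Of 23 genes listed as other glycoproteins and proteoglycans of the basement membrane, 5 fell and 0 rose, beside 3.23% of all genes that fell, with a median of −0.34. The 5 include Ltbp3, whose product belongs to microfibrils. Agrn, which encodes agrin, a heparan sulfate proteoglycan that binds laminin and dystroglycan, was at 48.7 to 59.6 CPM in GFPiSMC and 21.6 to 31.2 CPM in Tgfbr1/2iSMCKO (log2 fold change −1.0, SE 0.13, adjusted p = 0.000381). The others were Sparc (−2.0, adjusted p = 1.05e-06), a collagen-binding matricellular protein, Ltbp3 (−1.75, adjusted p = 6.38e-05), a latent TGF-β binding protein of microfibrils, Npnt (−1.07, adjusted p = 0.00770), an integrin ligand, and Smoc2 (−1.97, adjusted p = 0.0281), which is named to complete the count. Of the perlecan-like proteoglycans, Agrn fell and Hspg2 did not pass, and whether their changes differ was not tested.

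Among laminin receptor genes, Itgb1, the β subunit of the laminin-binding integrins of SMCs, fell and was at 1861 to 2209 CPM in GFPiSMC and 1250.1 to 1614 CPM in Tgfbr1/2iSMCKO (log2 fold change −0.48, SE 0.07, adjusted p = 0.00150). Itga7, a laminin-binding α subunit, had a log2 fold change of −0.64 (adjusted p = 0.0539) that passed with the GC correction (−0.65, adjusted p = 0.000807). Dag1, encoding dystroglycan, (−0.31, adjusted p = 0.400) and Bcam, a receptor for the laminin chain Lama5, (−0.08, adjusted p = 0.938) did not pass. Of 14 enzymes that build the laminin-binding sugar of dystroglycan, 0 passed with edgeR, beside 5.03% of all genes. At an unadjusted p under 0.05, 1 was lower and 0 were higher, beside 8.56% of all genes that were lower.

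The heparan sulfate chains of perlecan and agrin are made by another set of enzymes, of which 5 of 20 fell and 0 rose (median −0.28), beside 3.23% of all genes that fell. Ext1, a polymerase of the chain, was at 191 to 226 CPM in GFPiSMC and 65.2 to 81.2 CPM in Tgfbr1/2iSMCKO (log2 fold change −1.54, SE 0.09, adjusted p = 3.43e-07). Sulf1, which trims sulfates from finished chains (−1.42, adjusted p = 0.000257), Ndst1, a sulfotransferase (−0.81, adjusted p = 0.00793), Xylt1, which starts the chain (−0.88, adjusted p = 0.00877), and Hs6st2 (−0.95, adjusted p = 0.0333), named to complete the count, also fell. Of 12 proteases known to cut laminin, nidogen or perlecan, 2 fell and 0 rose, beside the same 3.23%. Ctsl, encoding cathepsin L, fell with a log2 fold change of −1.28 (adjusted p = 1.51e-05) and Htra1, encoding a secreted serine protease, with −1.40 (adjusted p = 5.41e-06).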

How the data were processed

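Bulk RNA-seq libraries of GFP+ SMCs were prepared with a low-input kit (NEBNext Single Cell/Low Input). The deposited values are whole-number counts per gene: the authors trimmed reads with Trim Galore (0.5.0), mapped them to GRCm38 (mm10) with HISAT2 (2.1.0) and quantified genes with StringTie (1.3.3b) on GENCODE M15. The counts are thus estimated from coverage, with values of 2 (32279) more frequent than values of 1 (22574), and the strand setting is not given in the sources used here. Of 52636 identifiers, 52489 matched GENCODE M21, which gave symbols, lengths and GC content. No 2 of the 12 libraries were identical.

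Genes were kept by filterByExpr on the 4 groups and scaled by TMM. Genotypes were compared with edgeR (4.0.16) quasi-likelihood tests with segment as a covariate, and segments and interactions as contrasts of 4 group means, with Benjamini-Hochberg adjustment over 22320 genes and a threshold of 0.05. DESeq2 (1.42.0), limma (3.58.1) and other settings served as alternatives in R (4.3.3), and figures were drawn with matplotlib. The GC correction used a lowess (span 0.3) of each library's deviations on the GC content of the longest transcript, over genes with a mean log2 CPM above 3, and was added after seeing the data. Scripts were tested on simulated data. Members and lists were chosen with earlier results of these data known. All members are named, as are, from each list, up to 4 called genes with the smallest p and some fixed partners. The labels do not say that the segments of a replicate number come from 1 animal, so p-values measure the spread between libraries. Intervals and counts cover the error between these libraries only, and shallow genes (Lamb1, Lama3) are the least precise. Some genes of the lists are not reported here.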

Additional observations from a re-analysis of the deposited data

How the results depend on the processing

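Over both segments, the Nid1 call held under 18 of 19 alternatives, with log2 fold changes from −1.26 to −0.97 and adjusted p from 1.09e-10 to 1. The exception was the test against a 2-fold change, with 0 members called. Within a segment, 0 members were called in ascending/arch and 0 in descending cells with library size only, with no filter beyond 1 count, with the replicate block, and with the segment fitted alone (Nid1 adjusted p 0.0582, 0.105, 0.0735 and 0.114 in ascending/arch, 0.0624, 0.0796, 0.0629 and 0.0897 in descending, and over all alternatives 0.000258 to 0.226 and 0.000142 to 0.199). Leaving out a replicate gave 0 to 1 members in either segment. Between segments of GFPiSMC, DESeq2 called 1 member (Lama2). The Lama4 share of the α-chain level moved from 67.0% to 76.4% with the longest transcript. The counts of genes on the lists that were called stayed between 19 and 28, and 2 ratios (2 to 3 without a replicate) did not overlap.

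The replicate number was entered as a replicate block. Deviations of the segments of a number correlated at −0.242 to 0.187 in GFPiSMC and at 0.0612 to 0.661 in Tgfbr1/2iSMCKO. Those of the genotypes of a number correlated at −0.527 to 0.216. With so few numbers per genotype, these values cannot settle whether a number is 1 animal. The block changed calls only as given above. With it, Nid1 was at −1.11 over both segments (adjusted p = 0.00248).

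Small values changed sign. With the GC correction, the ascending/arch genotype effects became −0.0057 (Lamb1), −0.13 (Lamb2) and −0.21 (Hspg2), the difference between segments became 0.16 for Nid1, and the GFPiSMC segment effect of Lamc1 became −0.0380. With the replicate block, Hspg2 was −0.0898 in ascending/arch, and with the replicate number within genotype as a block the Nid1 difference was 0.0043 and the Tgfbr1/2iSMCKO segment effect of Lama5 −0.0123. Library size only gave 0.0302 for the Nid1 difference, and no filter −0.00239 for that Lama5 effect. Without a replicate, the genotype effect over both segments ran from −0.0478 to 0.20 for Lama2, −0.0909 to 0.59 for Lama3, −0.12 to 0.46 for Lamb1 and −0.60 to 0.0372 for Lamb2. In ascending/arch it ran from −0.25 to 0.0513 (Lama2), −0.14 to 0.43 (Lama5), −0.53 to 0.48 (Lamb1), −0.27 to 0.25 (Lamb2) and −0.54 to 0.25 (Hspg2). The difference between segments ran from −0.11 to 0.82 (Lamb1), −0.12 to 0.15 (Nid1) and −0.0200 to 0.54 (Nid2). The segment effect ran from −0.13 to 0.45 for Lamc1 in GFPiSMC and, in Tgfbr1/2iSMCKO, from −0.0920 to 0.12 (Lama5), −0.20 to 0.11 (Lamb2) and −0.26 to 0.10 (Hspg2). Of 809 values of single genes under alternatives, 757 kept their direction and side of the threshold. The cause of these shifts was not tested.

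Counts over all genes moved by more than 1.5 times in some settings. Over both segments 721 genes were lower and 402 higher, against 1139 and 895 with DESeq2, 304 and 147 with counts summed per replicate number, and 99 and 38 against a 2-fold change. In ascending/arch the counts were 225 and 90, against 532 and 377 with DESeq2. In descending cells they were 269 and 116, against 553 and 354 with DESeq2 and 116 and 34 with the segment fitted alone. Between segments they were 69 and 15 in GFPiSMC and 21 and 4 in Tgfbr1/2iSMCKO, against 204 and 82 and 117 and 48 with DESeq2, and for the difference of effects DESeq2 called 1 gene lower and 7 higher where edgeR called 0. Leaving out a replicate gave 410 to 687 lower genes over both segments, 98 to 178 in ascending/arch and 109 to 254 in descending cells, and 5 to 71 and 4 to 16 between segments of GFPiSMC and Tgfbr1/2iSMCKO.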
